A study of Mus musculus with 6 samples.

Results

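The transcription factor p53 (gene Trp53) and 9 of its well-known target genes were followed in mouse bladder tumor organoids, small cultures grown in 3 dimensions from tumor cells. The 10 genes (Trp53, Cdkn1a, Mdm2, Bax, Bbc3, Ccng1, Trp53inp1, Zmat3, Plk2 and Phlda3) were taken by name out of a table of 51912 Ensembl gene IDs, because p53 is a known substrate of the deacetylase SIRT1. Earlier results of these data were known when the genes were chosen. SRT1720, known as a small-molecule activator of SIRT1, had been given to the organoids behind 3 RNA libraries, and vehicle to those behind 3 more. The labels name the strain of both groups as C57BL/6 and give no dose, no duration and no animal or culture for a library, so each p-value reflects only how far these libraries spread, which may be technical. Levels are given as the TPM of the deposited table, a read count scaled by gene length and library. Libraries are called SRT1720 1, 2 and 3 and Vehicle 1, 2 and 3 after their titles, and values of a group are listed in that order.

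Under stress p53 protein escapes degradation and binds DNA at response elements made of a pair of 10-base motifs, from which it switches on genes of cell cycle arrest, apoptosis and its own feedback. Acetylation of p53 favours its activity, and SIRT1 removes acetyl groups from it. The levels of p53 targets are widely read as a sign of p53 activity, although many of them also answer to other factors. The values here are mRNA levels, so neither the amount nor the acetylation of p53 protein was measured.

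Stretches of the members' promoters that hold the p53 10-base consensus are shown because a pair of such motifs makes up a p53 response element. RefSeq windows of 300 bases, 250 before and 50 after the annotated start on GRCm38.p6, were found for 8 of the 10 genes, in 11 windows. The exact p53 consensus motif, whose pattern reads the same on both strands, occurred in 5 of the 8 genes. It occurred in 9.55% of 27025 genes with such windows, and in 8.36% of 32851 windows. Each line gives the gene's own strand with 20 bases on either side, and the capitals mark the motif.
Cdkn1a: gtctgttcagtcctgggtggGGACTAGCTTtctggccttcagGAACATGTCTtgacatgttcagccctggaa
Mdm2: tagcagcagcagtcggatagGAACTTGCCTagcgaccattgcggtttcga
Bax: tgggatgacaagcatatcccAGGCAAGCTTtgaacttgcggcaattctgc
Ccng1: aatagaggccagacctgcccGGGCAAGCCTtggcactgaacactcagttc
Trp53: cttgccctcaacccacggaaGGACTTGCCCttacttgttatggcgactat
The Cdkn1a stretch (chr17:29090886-29090957, plus strand) holds a pair of exact motifs separated by 12 bases, a spacing of at most 13 that 0.0731% of all windows show. The 10 bases directly after the second of these motifs miss the consensus only at their first base, so they are not in capitals. With no spacer, they too could pair with that second motif, and which pair p53 binds was not tested. It belongs to the upstream one of 2 annotated Cdkn1a starts, and the downstream window has no match. The Mdm2 stretch lies at chr10:117710915-117710964 and the Bax stretch at chr7:45467070-45467119, both on the minus strand. The Ccng1 stretch lies at chr11:40755442-40755491 on the minus strand and the Trp53 stretch at chr11:69580264-69580313 on the plus strand. Mdm2, Bax, Ccng1 and Trp53 each had 1 exact motif in the window and no exact pair. The windows of Bbc3, Plk2 and Phlda3 hold no exact match, which says nothing about elements elsewhere in these genes. Windows for Trp53inp1 and Zmat3 were not used here. A match is a description of letters and not a measured binding site.

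The recovered depth was at least 18159660 to 22722475 reads per library, and the 9287 genes that averaged 1 TPM or more over the libraries were tested, among them all 10 members. Behind a single value of a member stood 74 to 8480 reads. Libraries of the same group differed widely in some genes. Krt5, a basal urothelial keratin, measured 16.4, 616 and 1120 TPM across the SRT1720 libraries, against 425, 9.61 and 741 TPM across the Vehicle libraries. Deviations from the group means correlated across genes between SRT1720 1 and Vehicle 2 (r = 0.721), SRT1720 2 and Vehicle 1 (r = 0.676) and SRT1720 3 and Vehicle 3 (r = 0.788). In each case that was the closest library of the other group, and the third pair alone shares a number. Taking out the group means removes any treatment difference, so these correlations do not show whether the libraries sort by treatment. Of 13 urothelial markers, 10 averaged 1 TPM or more. Epcam, a general epithelial marker, lay between 69.4 and 191 TPM, while Trp63, Gata3 and Upk1b were at 0.261, 0.192 and 0.66 TPM in their lowest libraries. Upk3a was at 0 in every library, Upk2 reached at most 0.419 TPM and Krt20 at most 0.0576 TPM. Markers of non-epithelial cells were scarce, since 1 of 10 fibroblast, 2 of 10 leukocyte, 0 of 7 endothelial and 0 of 6 smooth muscle genes reached a mean of 1 TPM.

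None of the 10 genes passed the test between SRT1720 and vehicle, in a fit that takes the libraries of a group as independent. By limma on log2(TPM + 1) with Benjamini-Hochberg adjustment over all genes tested, 0 of 10 members passed at 0.05, against a background of 0.0% of 9287 genes. At an unadjusted p under 0.05 there were 0 members, against 12.4% of all genes tested. With limma's voom on the recovered reads there were also 0, against 12.1% of all genes tested. The groups overlapped in all 10 members, while they did not overlap in 19.9% of all genes tested, 12.1% being higher and 7.75% lower with SRT1720. Of the members, 4 had log2 fold changes above 0 and 6 below. Their median was −0.08, beside 0.04 over all genes tested. With 1 library left out the members' median ran from −0.37 without Vehicle 3 to 0.06 without Vehicle 2, the only such value above 0.

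**Figure D1:**
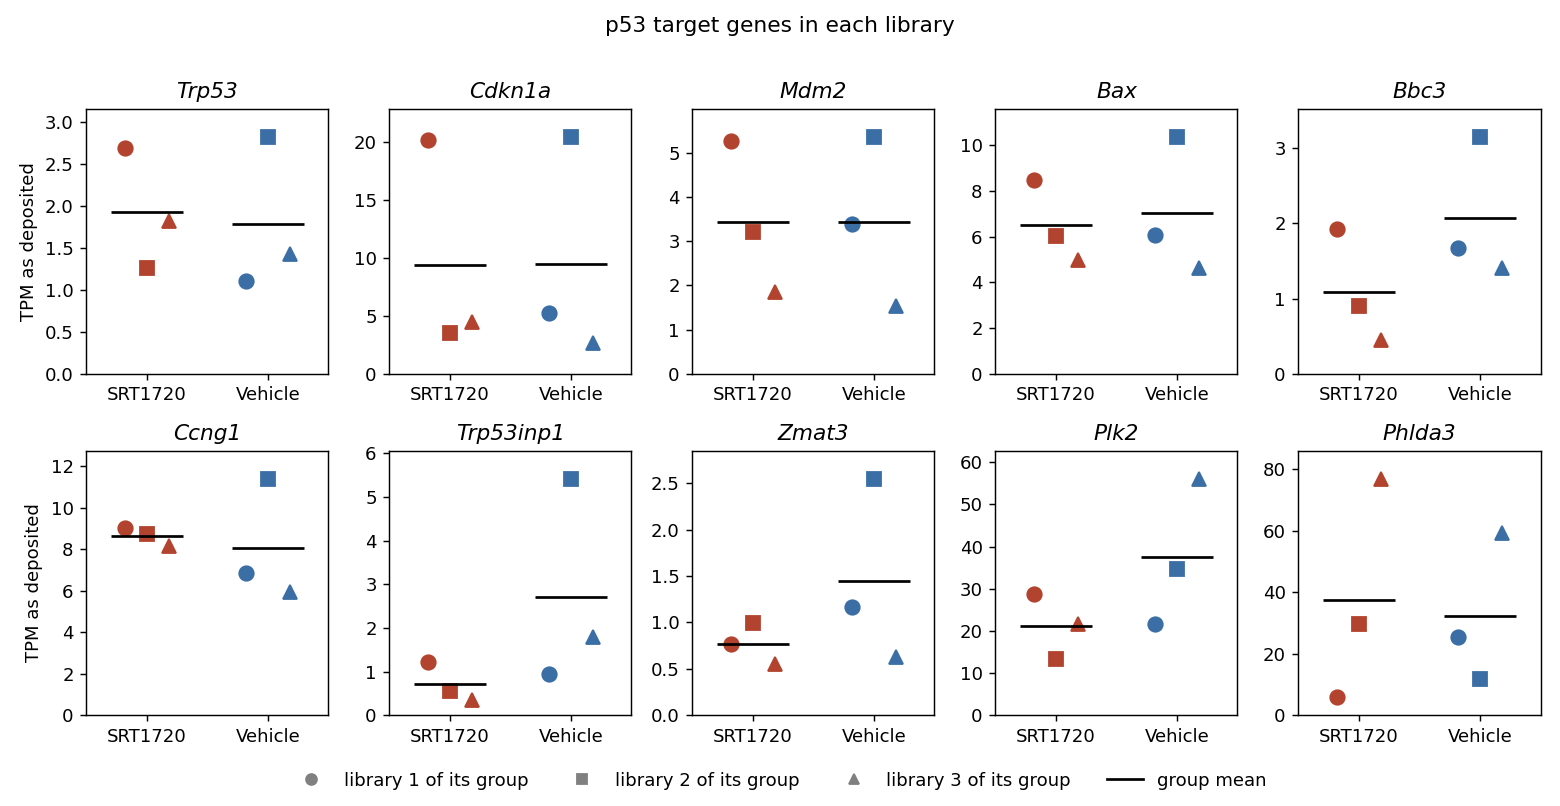
Deposited TPM of each of the 10 genes (vertical axes start at 0 and differ between panels) in the 3 SRT1720 and 3 Vehicle libraries, with marker shapes for the library number and a bar at the group mean. The groups overlap in every panel, and Vehicle 2 is the highest library in 8 of 10.

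Trp53 encodes p53 itself and lies on chromosome 11 from 69580359 to 69591873 (GRCm38). It measured 2.69, 1.26 and 1.83 TPM across the SRT1720 libraries, against 1.11, 2.82 and 1.43 TPM across the Vehicle libraries. The highest values came from SRT1720 1 and Vehicle 2, and the groups overlapped over most of their range. Trp53 averaged 1.93 ± 0.72 TPM under SRT1720, against 1.79 ± 0.91 TPM under vehicle (SD, n = 3 each), a log2 fold change of 0.09 (SE 0.28, limma adjusted p = 0.935). This small difference turned to −0.09 without SRT1720 1 and to −0.09 without Vehicle 1. The processed pseudogene Trp53-ps, to which reads could have been split, was at 0 to 0.525 TPM.

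Feedback on p53 runs through Mdm2, the ubiquitin ligase that marks p53 for degradation (chromosome 10, 117688875 to 117710758). Mdm2 measured 5.26, 3.21 and 1.85 TPM across the SRT1720 libraries, against 3.38, 5.34 and 1.54 TPM across the Vehicle libraries. Both groups thus held a high, an intermediate and a low library at nearly the same levels. Mdm2 averaged 3.44 ± 1.71 TPM under SRT1720, against 3.42 ± 1.90 TPM under vehicle, and the log2 fold change was 0.03 (95% interval −0.94 to 0.996, limma adjusted p = 0.987). The Mdm2 fold change was −0.25 without SRT1720 1 and −0.32 without Vehicle 3. Ccng1 encodes cyclin G1, which brings a phosphatase to Mdm2 (chromosome 11, 40748552 to 40755311). Ccng1 measured 9.02, 8.72 and 8.15 TPM across the SRT1720 libraries, against 6.83, 11.4 and 5.95 TPM across the Vehicle libraries. It was the least variable member, with a highest library 1.91 times its lowest, and the SRT1720 libraries fell inside the Vehicle range. Its log2 fold change was 0.13 (SE 0.24, limma adjusted p = 0.876), and −0.03 without Vehicle 3.

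Cdkn1a encodes p21, an inhibitor of cyclin-dependent kinases and the main effector of p53 in cell cycle arrest (chromosome 17, 29090976 to 29100727). It measured 20.2, 3.54 and 4.51 TPM across the SRT1720 libraries, against 5.22, 20.4 and 2.70 TPM across the Vehicle libraries. SRT1720 1 and Vehicle 2 stood apart at almost equal levels, and the other 4 libraries lay at or below 5.22 TPM. Cdkn1a averaged 9.40 ± 9.33 TPM under SRT1720, against 9.44 ± 9.57 TPM under vehicle (exact permutation p = 1, two-sided, where 3 against 3 cannot go below 0.1). The log2 fold change of Cdkn1a was 0.03 with a 95% interval of −1.87 to 1.94, and limma gave an adjusted p = 0.990. It turned to −0.66 without SRT1720 1, −0.14 without Vehicle 1 and −0.51 without Vehicle 3. The annotation places a gene of unresolved type, AC167363.2, on the opposite strand of Cdkn1a, and no strand setting is given in the sources used here.

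Plk2, a polo-like kinase active at checkpoints and in centrosome duplication, lies on chromosome 13 from 110395046 to 110400844. It measured 28.8, 13.4 and 21.6 TPM across the SRT1720 libraries, against 21.8, 34.8 and 56.0 TPM across the Vehicle libraries. Vehicle 3 was the highest library and SRT1720 2 the lowest, and SRT1720 1 exceeded Vehicle 1. Plk2 averaged 21.2 ± 7.71 TPM under SRT1720, against 37.5 ± 17.3 TPM under vehicle, a log2 fold change of −0.75 (SE 0.40, limma adjusted p = 0.496, exact permutation p = 0.2). It was −0.42 without Vehicle 3 and −0.47 without SRT1720 2, but −1.08 without Vehicle 1.

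Among genes of apoptosis, Bax encodes a pore-forming protein of the outer mitochondrial membrane (chromosome 7, 45461697 to 45466898). Bax measured 8.49, 6.02 and 4.98 TPM across the SRT1720 libraries, against 6.10, 10.3 and 4.65 TPM across the Vehicle libraries. The order of the libraries matched that of Mdm2, with SRT1720 1 and Vehicle 2 on top and SRT1720 3 and Vehicle 3 at the bottom. The log2 fold change of Bax was −0.06 (SE 0.30, limma adjusted p = 0.958), and it was 0.09 without SRT1720 3 and 0.22 without Vehicle 2. Gm45808, which overlaps Bax on the same strand, was at 0 in every library. Bbc3 encodes PUMA, a protein that frees Bax and its relatives to act (chromosome 7, 16308393 to 16318205). Bbc3 measured 1.93, 0.903 and 0.447 TPM across the SRT1720 libraries, against 1.67, 3.14 and 1.40 TPM across the Vehicle libraries. Of its SRT1720 libraries, SRT1720 2 and SRT1720 3 lay below every Vehicle library, and SRT1720 1 was second to Vehicle 2. Bbc3 averaged 1.09 ± 0.76 TPM under SRT1720, against 2.07 ± 0.94 TPM under vehicle, a log2 fold change of −0.57 (SE 0.32, limma adjusted p = 0.503, exact permutation p = 0.3). It was −0.34 without SRT1720 3 and −0.34 without Vehicle 2, but −0.85 without SRT1720 1. SRT1720 3 held only 74 reads of Bbc3, the lowest depth behind any member's value.

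Trp53inp1 encodes a stress-induced nuclear protein that promotes p53-dependent cell death and autophagy (chromosome 4, 11156431 to 11174379). It measured 1.22, 0.567 and 0.356 TPM across the SRT1720 libraries, against 0.950, 5.42 and 1.80 TPM across the Vehicle libraries. Vehicle 2 was 15.2 times SRT1720 3, the widest range among the members, and SRT1720 1 exceeded Vehicle 1. Trp53inp1 averaged 0.716 ± 0.45 TPM under SRT1720, against 2.72 ± 2.37 TPM under vehicle. Its log2 fold change of −0.96 (SE 0.44, 95% interval −2.01 to 0.09) was the farthest from 0 among the members and did not pass (limma adjusted p = 0.437, exact permutation p = 0.2). With 1 library left out it ran from −1.34 without Vehicle 1 to −0.48 without Vehicle 2. Vehicle 2 alone held 3186 reads of Trp53inp1 against 245 to 1154 in the other libraries.

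Zmat3, which encodes a zinc finger protein that binds RNA, lies on chromosome 3 from 32334792 to 32366014. It measured 0.766, 0.998 and 0.554 TPM across the SRT1720 libraries, against 1.17, 2.54 and 0.628 TPM across the Vehicle libraries. SRT1720 3 and Vehicle 3 were the lowest libraries, and Vehicle 2 stood above the rest. These were also the libraries in which chromosome 3 was low: its 407 tested genes had median deviations of −0.39 in SRT1720 3 and −0.41 in Vehicle 3 (log2), against 0.14 to 0.26 in the other 4 libraries. SRT1720 3 and Vehicle 3 were the lowest pair in 68.6% of chromosome 3 genes and in 16.8% of all genes tested, and the part of this in the Zmat3 values was not tested. The log2 fold change of Zmat3 was −0.40 (SE 0.29, limma adjusted p = 0.625), and it was −0.09 without Vehicle 2 and −0.65 without Vehicle 3.

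Phlda3 encodes a small protein that restrains the survival kinase Akt (chromosome 1, 135766119 to 135769136). It measured 6.09, 29.8 and 76.8 TPM across the SRT1720 libraries, against 25.5, 11.9 and 59.2 TPM across the Vehicle libraries. SRT1720 1 and Vehicle 2, the highest libraries for Cdkn1a, were the lowest for Phlda3. Its highest were SRT1720 3 and Vehicle 3, while the lowest for Cdkn1a were SRT1720 2 and Vehicle 3. Phlda3 averaged 37.6 ± 36.0 TPM under SRT1720, against 32.2 ± 24.3 TPM under vehicle, with a log2 fold change of −0.09 (SE 0.93, limma adjusted p = 0.980), so the means on the TPM scale and on the log scale differ in sign. The fold change was 0.83 without SRT1720 1 and 0.47 without Vehicle 3.

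**Figure D2:**
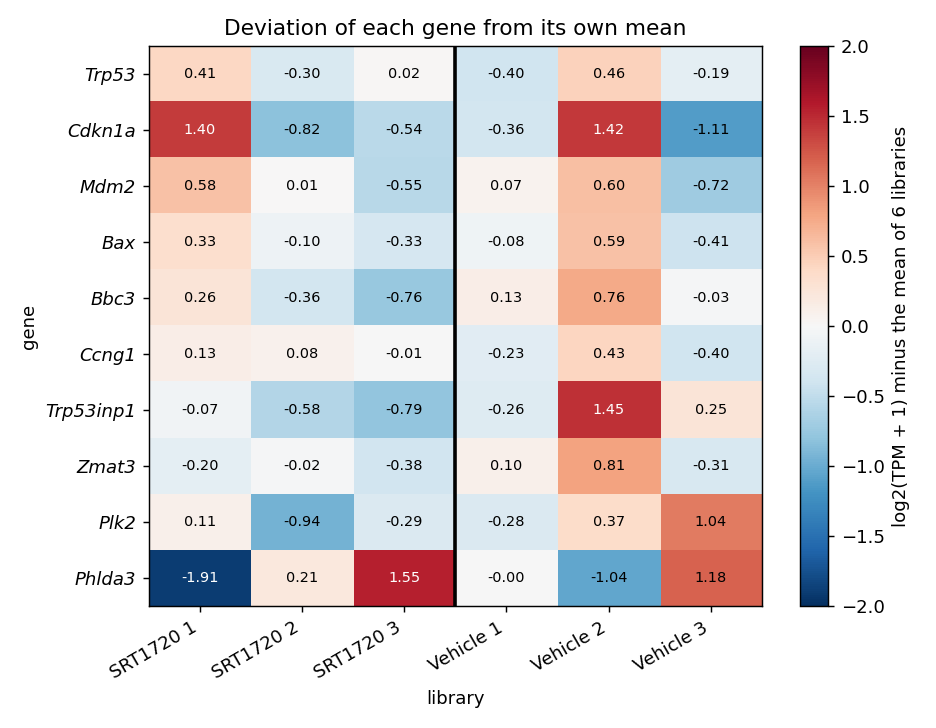
Each cell gives log2(TPM + 1) of a gene in a library minus that gene's mean over the 6 libraries, with the SRT1720 libraries left of the line and the Vehicle libraries right of it. Cdkn1a stands at 1.40 in SRT1720 1 and 1.42 in Vehicle 2, where Phlda3 stands at −1.91 and −1.04.

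Most of the members followed a pattern over libraries that crossed the treatment. SRT1720 1 and Vehicle 2 were the 2 highest libraries for 6 of 10 members (Trp53, Cdkn1a, Mdm2, Bax, Bbc3 and Ccng1), as they were for 16.2% of all genes tested. They were the 2 lowest for 1 member, Phlda3, and for 12.3% of all genes. Plk2, Trp53inp1 and Zmat3 had neither order, and no test was made of the 6. The 5 genes with an exact motif in the promoter windows shown above are all among those 6, which was likewise not tested. Only 8 of the 10 members had windows, and those 8 include all of the 6. Bbc3, also among the 6, had windows without a match. Outside the 6, only Plk2 and Phlda3 were searched, so there is little to compare with. SRT1720 1 and Vehicle 2 are also the libraries low in Krt5. Trp63, which encodes the p53 relative that maintains basal epithelium and binds similar DNA, measured 0.58, 7.198 and 10.2 TPM across the SRT1720 libraries, against 3.61, 0.261 and 10.7 TPM across the Vehicle libraries. Its lowest libraries were thus the same pair, and the part of basal identity in the members' values was not tested.

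Without both SRT1720 1 and Vehicle 2, 4 of 10 members no longer overlapped between groups, against 44.0% of all genes tested, so the share was close to the background. Bbc3, Trp53inp1 and Plk2 were then lower with SRT1720, at log2 fold changes of −0.61, −0.68 and −0.9998, and Ccng1 was higher at 0.35. Without both SRT1720 3 and Vehicle 3, 1 of 10 members (Zmat3) did not overlap, against 40.0% of all genes. In either set of 4 libraries, 0 members passed limma's adjusted test, beside 0 of all 9287 genes tested. Without SRT1720 1 and Vehicle 2, Cdkn1a, Mdm2 and Bax had log2 fold changes of 0.06, 0.05 and 0.03.

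Each SRT1720 library was also set beside the Vehicle library it most resembled, a matching that comes from these data and not from the labels, so no fit used it and no test was made. Bbc3, Trp53inp1, Zmat3 and Plk2 were lower in the SRT1720 library all 3 times, which makes 4 of 10 members, beside 22.0% of all genes tested. For Bbc3 the log2 differences were −0.50 for SRT1720 1 minus Vehicle 2, −0.49 for SRT1720 2 minus Vehicle 1 and −0.73 for SRT1720 3 minus Vehicle 3. For Zmat3 they were −1.01, −0.12 and −0.07 over the same matches. Higher all 3 times were 0 members, beside 29.8% of all genes tested.

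**Figure D3:**
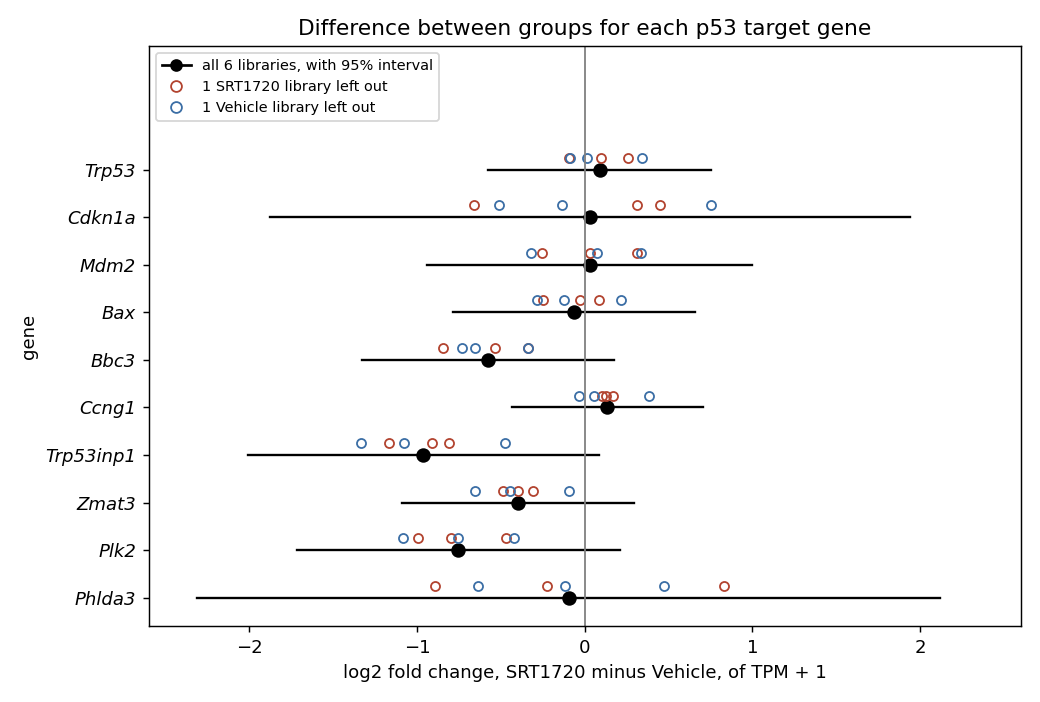
Log2 fold change of TPM + 1, SRT1720 minus Vehicle, for each gene, with limma's 95% interval (black) and the value with 1 library left out (open circles, colored by the group that lost a library). Every interval crosses 0, from 0.09 at the upper end for Trp53inp1 to −2.31 to 2.12 for Phlda3, and the open circles of 6 genes fall on both sides of 0.

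Profiles nearest to 3 of the members were sought by the root mean square difference of log2(TPM + 1) over the 6 libraries, each gene centred on its own mean. For Trp53 the nearest were Mettl6 (0.037), Hmgn1 (0.0826) and Lrig1 (0.0884), all on the log2 scale. For Cdkn1a they were Grb10 (0.181), Herpud1 (0.263) and Cep85 (0.297). For Mdm2 they were Gm9803 (0.0477), Zfp110 (0.0626) and Anapc16 (0.0722). Other members were not among the 3 nearest, where ranks run over the other genes of the 9287 tested. In distance from Mdm2, Bax ranked 108 and Cdkn1a 6565, and in distance from Cdkn1a, Mdm2 ranked 171 and Phlda3 9248. In distance from Trp53, Ccng1 ranked 399, Bax 548 and Phlda3 9219. The measure depends on the size of a gene's swings as well as on their order.

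Among genes that act on p53, 20 of 25 were tested, and 0 passed. In this list 13 log2 fold changes were above 0 and 7 below, with a median of 0.05. Of the tested genes, 1 did not overlap between groups, beside 19.9% of all genes tested. That gene was Daxx, a chaperone of histone H3.3 that also works with Mdm2. Daxx measured 2.51, 2.45 and 2.65 TPM across the SRT1720 libraries, against 2.13, 2.02 and 2.28 TPM across the Vehicle libraries (log2 fold change 0.17, limma adjusted p = 0.611). Below the filter, Cop1, a ubiquitin ligase for p53, did not overlap either, at 0.656, 0.637 and 0.744 TPM across the SRT1720 libraries, against 0.889, 0.961 and 0.868 TPM across the Vehicle libraries. With no filter, this held for 12.3% of 27713 genes. Hdac1, a deacetylase that can act on p53, measured 6.17, 7.38 and 9.21 TPM across the SRT1720 libraries, against 4.31, 4.003 and 7.03 TPM across the Vehicle libraries (log2 fold change 0.51, limma adjusted p = 0.448). Setd7, a methyltransferase that can act on p53, averaged 3.59 ± 0.98 TPM under SRT1720, against 5.59 ± 3.99 TPM under vehicle (SD, n = 3 each), with its highest value, 10.1 TPM, in Vehicle 2. Mdm4, the partner of Mdm2 that blocks p53, averaged 1.35 ± 0.28 TPM under SRT1720, against 1.47 ± 0.16 TPM under vehicle, with a log2 fold change of −0.07 (SE 0.14). Sirt1 stayed below the filter and measured 1.29, 1.06 and 0.792 TPM across the SRT1720 libraries, against 0.728, 0.971 and 0.474 TPM across the Vehicle libraries.

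Of 15 other p53 targets of arrest and DNA repair, 10 were tested and 0 passed, with a median log2 fold change of −0.14. All 10 overlapped between groups, while 19.9% of all genes tested did not. Gadd45a, a stress sensor in growth arrest, measured 7.74, 0.706 and 1.59 TPM across the SRT1720 libraries, against 5.96, 15.4 and 4.71 TPM across the Vehicle libraries. SRT1720 2 and SRT1720 3 lay below all Vehicle libraries, and the log2 fold change was −1.36 (SE 0.67, limma adjusted p = 0.467). Sfn, which encodes the epithelial protein 14-3-3 sigma, measured 16.2, 87.3 and 149 TPM across the SRT1720 libraries, against 76.6, 8.09 and 76.1 TPM across the Vehicle libraries. As with Phlda3, SRT1720 1 and Vehicle 2 were its lowest libraries.

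Of 16 other targets of apoptosis, 11 were tested and 0 passed, with a median log2 fold change of −0.06. Free of overlap were 0 of those 11, beside 19.9% of all genes tested. Below the filter, Pidd1, a death domain protein gene, did not overlap, at 0.381, 0.505 and 0.509 TPM across the SRT1720 libraries, against 0.151, 0.266 and 0.379 TPM across the Vehicle libraries. With no filter, 12.3% of 27713 genes did not overlap. Pmaip1, which encodes NOXA, measured 10.4, 3.75 and 7.26 TPM across the SRT1720 libraries, against 5.21, 10.8 and 19.7 TPM across the Vehicle libraries. Its log2 fold change was −0.59 (SE 0.50, limma adjusted p = 0.681), and like Plk2 it was highest in Vehicle 3. Siva1, another gene of cell death, averaged 5.80 ± 1.04 TPM under SRT1720, against 8.59 ± 2.41 TPM under vehicle (SD, n = 3 each; limma adjusted p = 0.469).

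Of 19 other targets of metabolism and stress, 14 were tested and 0 passed, with a median log2 fold change of −0.20. Here 2 of the 14 tested genes did not overlap between groups, 1 in each direction, beside 19.9% of all genes tested. Tigar, a phosphatase that lowers glycolytic flux, measured 4.003, 4.26 and 3.75 TPM across the SRT1720 libraries, against 2.83, 3.36 and 2.61 TPM across the Vehicle libraries. Its log2 fold change was 0.35 (SE 0.14, limma adjusted p = 0.385). Sat1, an enzyme of polyamine breakdown, measured 9.18, 4.48 and 4.68 TPM across the SRT1720 libraries, against 11.9, 20.1 and 9.85 TPM across the Vehicle libraries. Its log2 fold change was −1.07 (SE 0.34, limma adjusted p = 0.335). Gdf15, a secreted stress cytokine, measured 13.5, 0.594 and 0.254 TPM across the SRT1720 libraries, against 7.40, 50.4 and 0.671 TPM across the Vehicle libraries, with SRT1720 1 and Vehicle 2 again highest.

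**Figure D4:**
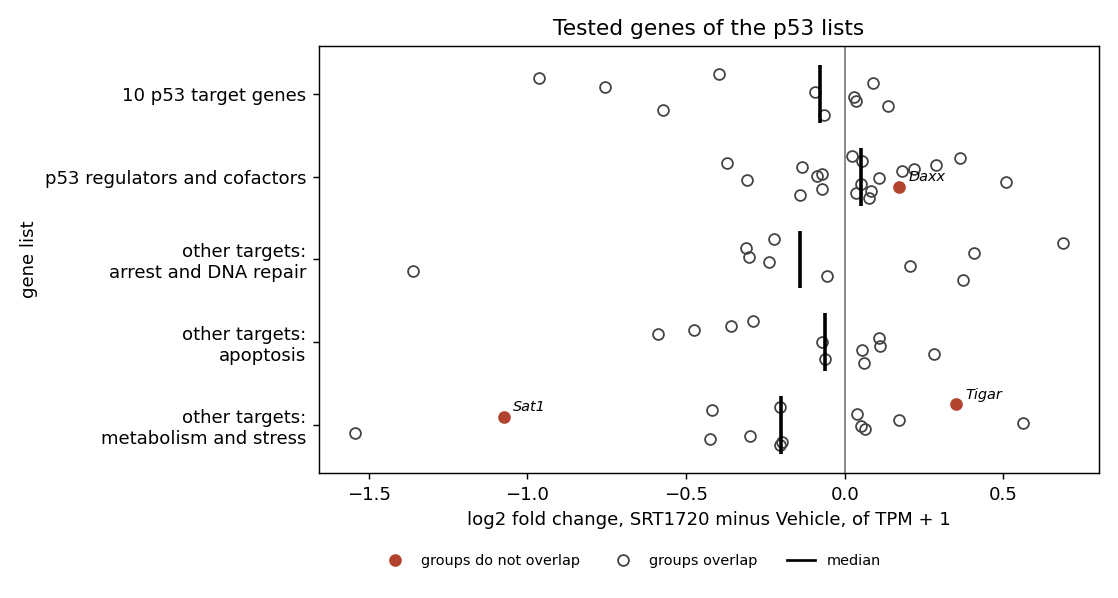
Log2 fold change of TPM + 1, SRT1720 minus Vehicle, of each tested gene (points, spread vertically within a list) in the 10 p53 target genes and 4 further lists, with the list median as a bar. Among the tested genes, Daxx, Tigar and Sat1 are those whose 3 SRT1720 libraries do not overlap the 3 Vehicle libraries, and list medians lie between −0.20 and 0.05.

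Summed markers of other cell types overlapped between the groups. Summed fibroblast markers were at 0.0853 to 5.37 TPM with SRT1720 and 0.245 to 8.54 TPM with vehicle, and summed leukocyte markers at 1.04 to 11.7 TPM with SRT1720 and 1.99 to 16.1 TPM with vehicle. Summed smooth muscle markers were at 0.0781 to 0.3002 TPM with SRT1720 and 0.163 to 4.34 TPM with vehicle, and endothelial markers reached at most 0.634 TPM in both groups. The highest fibroblast and leukocyte sums came from SRT1720 2 and Vehicle 1. Within the leukocyte list Lyz2 was at 10.5 TPM in SRT1720 2 and 14.3 TPM in Vehicle 1 and at 0 in the other 4 libraries, and Ptprc, the defining leukocyte gene, reached at most 0.0129 TPM. Cd68, a lysosomal glycoprotein gene, measured 1.31, 0.73 and 1.03 TPM across the SRT1720 libraries, against 1.45, 1.92 and 3.09 TPM across the Vehicle libraries. Its groups did not overlap, as for 19.9% of all genes tested, and its part in the members' values was not tested. Col6a1 averaged 1.07 ± 1.32 TPM under SRT1720, against 1.62 ± 2.37 TPM under vehicle (SD, n = 3 each). Of 10 tested urothelial genes 0 passed, and Upk1b and Krt8 had the largest differences in the list, at log2 fold changes of 0.82 (SE 0.75) and 0.69 (SE 0.74). In bulk libraries, fewer cells of a type and less RNA per cell cannot be told apart.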

How the data were processed

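RNA was measured in 6 libraries, grouped by their titles. The authors deposited values named TPM, one column per library, with STAR 2.6.0 and the build GRCm38, per the submitters' processing notes. Which counter, gene lengths, annotation and strand setting were used is not given in the sources used here. Columns sum to between 161231 and 171577, so the deposited TPM values were read as relative levels per length and depth. Gene names and positions came from GENCODE M21 (GRCm38), which matched 51719 of 51912 IDs, and promoters from RefSeq.

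Values of a gene were whole multiples of one step per library within 0.01, which gave the smallest whole reads for all 27713 IDs above 0. These can understate low genes. Genes averaging 1 TPM or more were fitted with limma 3.58.1 in R 4.3.3 (mean trend, log2(TPM + 1), Benjamini-Hochberg, threshold 0.05), and intervals are 95%. The read recovery and the limma fit were checked on simulated data. In the limma check the noise was independent between libraries, so it does not cover the resemblance between libraries seen here. Exact permutation tests used scipy 1.17.1 under Python 3.11.15, tables pandas 2.3.3 with numpy 2.4.6, and plots matplotlib 3.10.9.

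The members and lists were chosen with earlier results of these data known. Named genes are all members and, of each other list, those called, up to 4 without overlap and the 2 with the largest differences, with Sirt1, Mdm4 and Trp63 always given. Krt5, Epcam, Gata3, Upk2, Upk3a, Krt20, Ptprc, Cop1 and Pidd1 were added after their values were seen. Alternatives covered the pseudocount, filters, scaling, weights, a replicate block, voom on recovered reads and left-out libraries.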

Additional observations from a re-analysis of the deposited data

How the results depend on the processing

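Under 16 other settings 0 genes and 0 members passed limma's adjusted test, and the members' adjusted p lay between 0.2002 and 0.9998. At an unadjusted p under 0.05 there were 2 of 10 members with library weights (22.1% of all genes tested), 2 without both SRT1720 1 and Vehicle 2 (11.1%), and 0 to 2 with 1 library left out (5.63% to 11.3%). Bbc3, Trp53inp1, Zmat3 and Plk2 stayed below 0 in each setting run. With a pseudocount of 0.1 and with voom the log2 fold changes were −0.98 and −1.07 for Bbc3, −1.59 and −1.71 for Trp53inp1, and −0.66 and −0.70 for Zmat3, which was −0.22 with library weights. Plk2 ranged from −1.08 to −0.42. Signs of the others turned as follows, and the cause was not tested. With library weights the log2 fold change was −0.031 for Trp53, −0.42 for Cdkn1a and 0.12 for Phlda3, and with median-of-ratios scaling −0.00056 for Mdm2. Without both SRT1720 1 and Vehicle 2 it was 0.033 for Bax and 0.29 for Phlda3. Without both SRT1720 3 and Vehicle 3 it was −0.23 for Cdkn1a and −0.040 for Mdm2. With 1 library left out the values ranged from −0.093 to 0.34 for Trp53, −0.66 to 0.75 for Cdkn1a, −0.32 to 0.34 for Mdm2, −0.29 to 0.22 for Bax, −0.033 to 0.38 for Ccng1 and −0.89 to 0.83 for Phlda3. Members free of overlap numbered 0 to 3 with 1 library left out, where 24.0% to 32.9% of all genes were, 4 without both SRT1720 1 and Vehicle 2 and 1 without both SRT1720 3 and Vehicle 3. The members' median log2 fold change was −0.37 to 0.06 with 1 library left out. It was 0.04 without both SRT1720 1 and Vehicle 2 and −0.28 without both SRT1720 3 and Vehicle 3. Same-numbered libraries did not all deviate together (r = −0.197, −0.262 and 0.788). The labels do not say whether equal numbers mean a pair, and no crossed pairing was fitted. A fit with the replicate block gave 0 calls and 1133 genes at an unadjusted p under 0.05, against 1153 without it. Zmat3, Bbc3, Trp53, Trp53inp1 and Mdm2 fell below a filter at a mean of 5 TPM.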
